A study of Mus musculus with 18 samples.

Results

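The proteasome genes analysed here are the protein-coding genes of the deposited count table whose symbol is Psma, Psmb, Psmc, Psmd, Psme, Psmf or Psmg followed by a digit. There were 50 of them among 55573 genes, and they were read as 5 inducible genes, Psmb8, Psmb9, Psmb10, Psme1 and Psme2, against the other 45. They were measured by bulk RNA-seq in mouse peritoneal macrophages, obtained by lavage and sorted for F4/80 and CD11b, and each library pooled 2 to 3 C57BL/6 mice. Zeb1WT mice carried floxed Zeb1 alleles (Zeb1 fl/fl) without Cre, and Zeb1∆M mice carried the same alleles with Cre under the myeloid LysM (Lyz2) promoter, so that every group, controls included, was floxed. Within each genotype the mice received vehicle (PBS) and then a single LPS dose (LPS), 2 LPS doses (LPS + LPS), or metformin and then LPS (Metformin + LPS), which gave 6 groups of 3 libraries. No group without LPS was analysed here. The treatment comparisons are against macrophages of the same genotype that had met LPS once, and the genotype comparisons are against Zeb1WT macrophages with the same treatment.

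The 18 libraries held between 14053706 and 30570439 counts. Zeb1 itself lay at 6.41 to 7.21 CPM (counts scaled to a common library total) in Zeb1WT LPS and 1.38 to 3.01 in Zeb1∆M LPS, and at 12.3 to 12.9 and 3.92 to 4.79 in the Metformin + LPS pair. In the LPS + LPS pair it was low in both genotypes, at 0.912 to 2.52 in Zeb1WT and 0.738 to 0.926 in Zeb1∆M, with 1 of the 3 Zeb1WT libraries inside the Zeb1∆M range. The macrophage markers were abundant in every group, with a summed level of at least 12200 CPM. The codes of the Metformin + LPS libraries run in a series other than that of the LPS and LPS + LPS libraries, so that an effect of metformin and of this difference cannot be told apart.

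The proteasome degrades proteins marked with ubiquitin. Its barrel-shaped core has outer rings of alpha subunits (Psma genes) and inner rings of beta subunits (Psmb genes), and Psmb5, Psmb6 and Psmb7 encode the subunits that cut peptide bonds in most cells. Interferon and inflammatory signals induce Psmb8, Psmb9 and Psmb10, whose products take the places of these subunits during assembly and form the immunoproteasome, known for producing peptides that fit MHC class I. Psme1 and Psme2 encode PA28 alpha and PA28 beta, which together form a ring that caps the core and opens it. The regulatory cap, called 19S, is made of ATPases (Psmc genes), which unfold substrates, and of further subunits (most Psmd genes), some of which bind or trim ubiquitin.

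Promoters are shown for inducible and constitutive partners, because the DNA words through which interferon and NFE2L1 (the factor that raises proteasome genes when proteasome activity is short) are known to act can be read from them. RefSeq windows from 250 bases before to 50 after the start, on GRCm38.p6, were matched for 42 of the 50 genes. The searched words, on both strands, were an interferon-stimulated response element core (GAAA, 2 bases of any kind, and GAAA again), a gamma-activated site (TTCNNNGAA), an antioxidant-type element (TGACNNNGC) and an NF-kB-type word (GGG and CC with 5 bases of any kind between them). Capitals mark matches to the first 3 words in every sequence but Psmb9, which held none of them and in which capitals mark the NF-kB-type word. The windows are Psmb8 at chr17:34197945-34198244 (plus strand), Psmb9 at chr17:34187281-34187580 (minus), Psme1 at chr14:55578244-55578543 (plus), Psmb5 at chr14:54617946-54618245 (minus) and Psmb6 at chr11:70525107-70525406 (plus).
Psmb8: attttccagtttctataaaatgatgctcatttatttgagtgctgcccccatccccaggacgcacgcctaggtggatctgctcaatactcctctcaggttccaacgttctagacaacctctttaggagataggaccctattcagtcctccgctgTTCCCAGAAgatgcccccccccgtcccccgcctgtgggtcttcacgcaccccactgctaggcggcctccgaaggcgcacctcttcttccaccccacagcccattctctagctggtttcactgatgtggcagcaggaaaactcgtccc
Psmb9: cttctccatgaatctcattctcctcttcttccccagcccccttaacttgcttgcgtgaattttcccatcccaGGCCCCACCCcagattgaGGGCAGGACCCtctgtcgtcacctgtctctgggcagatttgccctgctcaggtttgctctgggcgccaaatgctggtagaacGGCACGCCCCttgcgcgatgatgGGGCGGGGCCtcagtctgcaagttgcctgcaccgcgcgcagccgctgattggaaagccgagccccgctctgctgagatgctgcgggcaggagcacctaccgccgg
Psme1: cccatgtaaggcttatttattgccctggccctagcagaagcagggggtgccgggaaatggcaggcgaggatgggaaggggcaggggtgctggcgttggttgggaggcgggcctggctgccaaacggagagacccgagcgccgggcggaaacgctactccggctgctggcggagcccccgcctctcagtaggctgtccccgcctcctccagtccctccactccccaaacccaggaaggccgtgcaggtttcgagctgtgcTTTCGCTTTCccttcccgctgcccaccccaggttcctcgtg
Psmb5: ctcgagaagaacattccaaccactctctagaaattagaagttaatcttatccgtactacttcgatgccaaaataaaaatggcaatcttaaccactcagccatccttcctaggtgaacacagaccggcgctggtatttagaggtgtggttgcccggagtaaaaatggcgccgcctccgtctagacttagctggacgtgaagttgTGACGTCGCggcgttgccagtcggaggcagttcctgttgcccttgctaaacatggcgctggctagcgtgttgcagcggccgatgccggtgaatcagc
Psmb6: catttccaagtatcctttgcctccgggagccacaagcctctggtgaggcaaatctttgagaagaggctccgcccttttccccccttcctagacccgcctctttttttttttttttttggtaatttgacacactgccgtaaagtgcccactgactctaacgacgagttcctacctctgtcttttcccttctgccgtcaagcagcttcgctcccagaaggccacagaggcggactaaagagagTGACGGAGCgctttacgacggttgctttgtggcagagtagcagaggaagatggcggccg
The response element core was found in 1 of the 5 inducible genes (Psme1) and in 4 of 37 others, against 3.99% of 27025 genes with such a window. The gamma-activated site was found in 1 of 5 (Psmb8) and 2 of 37, against 9.55%. The antioxidant-type element was in 0 of 5 and in 6 of 37, Psmb5 and Psmb6 among them, against 14%, and the NF-kB-type word was in 3 of 5 and 21 of 37, against 53.5%. Psmb9 and Tap1, the latter a transporter of peptides for MHC class I, are divergent neighbours, and their windows share 275 bases. A match says only that the letters are there.

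After a single LPS dose 4 of the 5 inducible genes were the most abundant of the family in Zeb1WT, and 3 of them in Zeb1∆M. Per kilobase of the principal transcript, Psme2 stood first in Zeb1WT LPS at 408 ± 73.1 CPM per kb (SD, n = 3, as for all values given with ±), followed by Psmb8 at 301 ± 12.8, Psme1 at 234 ± 2.8 and Psmb10 at 212 ± 13, while Psmb9 was in place 11 at 115 ± 12.1. The constitutive partners were lower, with Psmb6 in place 8 at 139 ± 19.6 CPM per kb, Psmb5 in place 29 at 66.5 ± 9.73 and Psmb7 in place 32 at 54.3 ± 4.72. The first 3 genes did not overlap with the next one in the order, while from Psmb10 in place 4 to Psmb9 each gene overlapped with the next. Of all 48 neighbouring pairs, 40 overlapped. In Zeb1∆M LPS Psme2 was first at 427 ± 86.9 CPM per kb, followed by Psmb8 at 281 ± 80.8 and Psmb10 at 229 ± 45.1, while Psma6 and Psmb2 came before Psme1, in place 6 at 177 ± 27.9, and Psmb9 was in place 16 at 104 ± 1.67. There each of the first 9 genes overlapped with the next. In Zeb1WT LPS + LPS the order was another. Psma6, a subunit of the alpha ring, was then first, Psme2 second, Psmb8 in place 11, Psme1 in place 14, Psmb10 in place 23 and Psmb9 in place 37, at 39.3 CPM per kb. Psma8, a core subunit of germ cells, and Psmc3ip, a recombination factor that shares the symbol only, lay at the bottom in Zeb1WT LPS, and Psmb11, the thymus subunit, had counts in 1 of 18 libraries and was not tested.

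A second LPS dose went with lower levels of all 5 inducible genes in both genotypes. The median log2 change of the 5 genes was -1.48 in Zeb1WT and -1.46 in Zeb1∆M, whereas the other 44 members tested had medians of 0.11 and -0.11, close to the median of all 13443 genes tested (0.08 and 0.01). Called genes here have an adjusted p under 0.05 in edgeR's quasi-likelihood test over all genes. In Zeb1WT 14 of 49 members were called, 5 higher and 9 lower, where the background over all genes was 36.6% called (18.6% higher and 18% lower). In Zeb1∆M 4 were higher and 14 lower, against 32.7% of all genes (15.8% higher and 16.9% lower). The count for the whole family was near the background in each genotype, and the 5 of 5 inducible genes called lower in each genotype stand beside 4 of 44 and 9 of 44 of the rest. Replicate 1 of Zeb1WT LPS + LPS was the highest of its group for Psmb9, Psmb10 and Psme1, and without it 6 members were higher and 8 lower in Zeb1WT, with log2 changes of -1.81 for Psmb9, -1.61 for Psmb8, -1.61 for Psmb10 and -1.48 for Psme1, each still called. Both genotypes have their own LPS libraries, so that these contrasts share no sample.

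**Figure D1:**
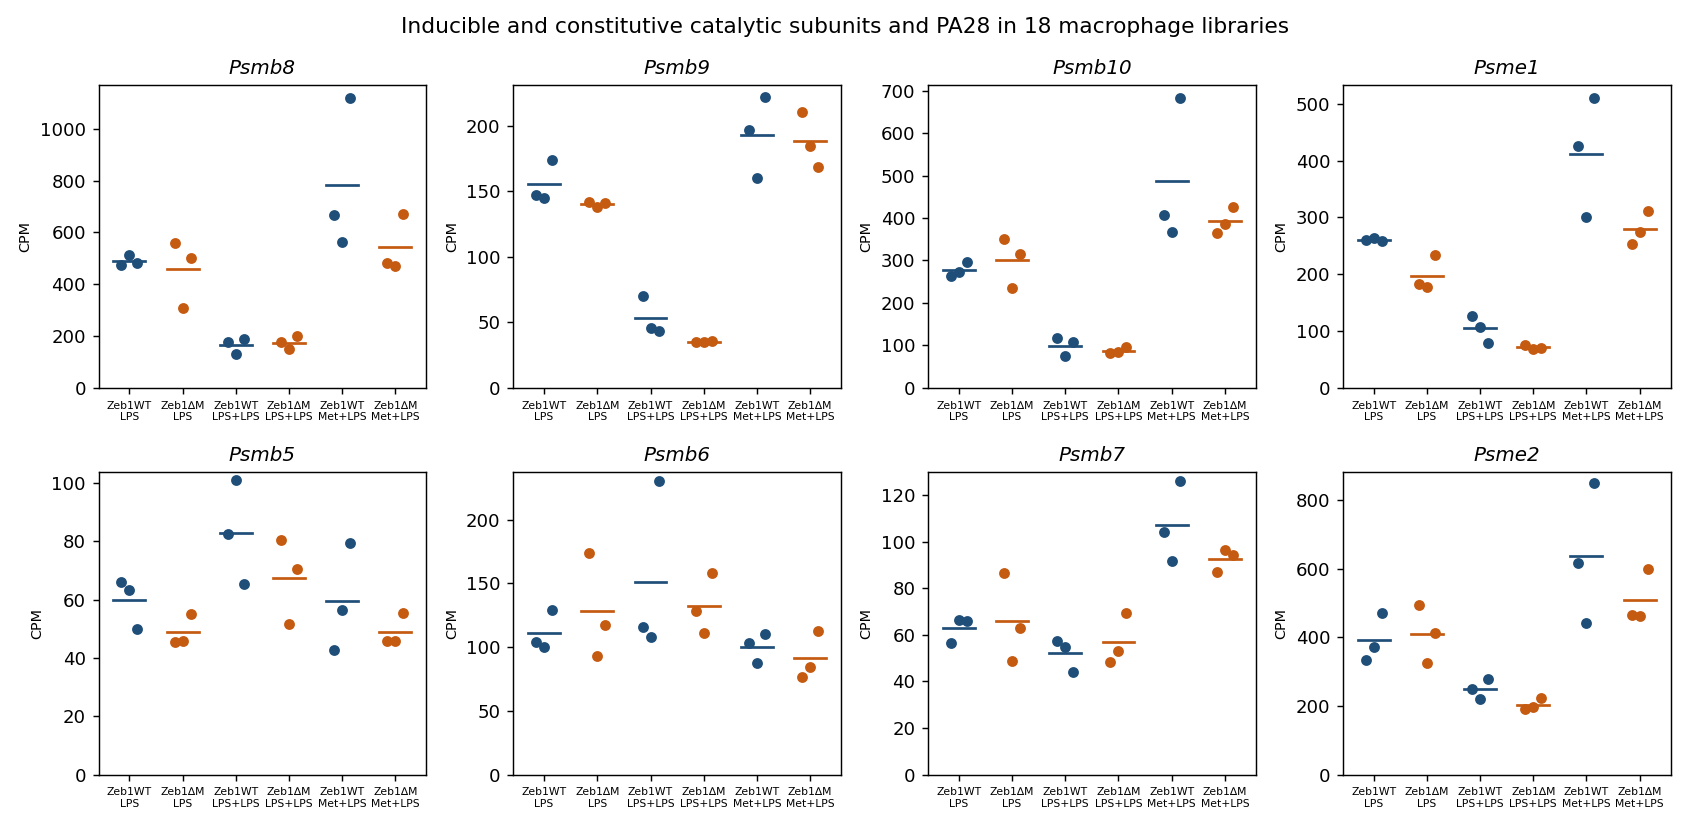
CPM (y axis, linear from 0) of Psmb8, Psmb9, Psmb10, Psme1 and Psme2 and of the constitutive subunits Psmb5, Psmb6 and Psmb7 in the 6 groups (x axis), with a point for each of 18 libraries, a bar for the group mean, and Zeb1WT in blue and Zeb1∆M in orange. Psmb9 lies at 138 to 174 CPM in the 6 LPS libraries and at 34.8 to 70.3 in the 6 LPS + LPS libraries.

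Psmb9, which replaces Psmb6, had 147, 145 and 174 CPM in Zeb1WT LPS against 70.3, 46 and 43.1 in Zeb1WT LPS + LPS. In Zeb1∆M it had 142, 138 and 141 CPM against 35.1, 34.8 and 35.9. No library with 2 doses reached any library with a single dose. The fold change was 0.342 in Zeb1WT (log2 -1.55, SE 0.19, adjusted p 3.8e-06 in edgeR) and 0.251 in Zeb1∆M (log2 -1.996, SE 0.19, adjusted p 3.5e-07).

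Psmb8, which replaces Psmb5, had 474, 514 and 482 CPM in Zeb1WT LPS and 176, 131 and 190 after the second dose. In Zeb1∆M the values were 560, 309 and 503 against 177, 149 and 199. The groups were apart in both genotypes, although replicate 2 of Zeb1∆M LPS was low among its 3 libraries. The log2 change of Psmb8 was -1.56 in Zeb1WT (SE 0.27, adjusted p 0.00015 in edgeR) and -1.39 in Zeb1∆M (SE 0.26, adjusted p 0.00054).

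Psmb10, which replaces Psmb7, went from 263, 274 and 296 CPM to 117, 75.4 and 107 in Zeb1WT and from 351, 236 and 315 to 82.1, 84.5 and 96.9 in Zeb1∆M. The groups did not overlap. The log2 changes were -1.48 (SE 0.23, adjusted p 6.1e-05) and -1.77 (SE 0.23, adjusted p 1.2e-05) in edgeR.

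Of the PA28 genes, Psme1 had 260, 264 and 258 CPM in Zeb1WT LPS and 127, 108 and 79 in Zeb1WT LPS + LPS. Its Zeb1∆M values were 182, 177 and 233 against 75.8, 68.6 and 70.3 CPM. All 6 libraries with 2 doses lay below all 6 with a single dose, and the log2 changes were -1.32 (SE 0.20, adjusted p 6e-05 in edgeR) and -1.46 (SE 0.21, adjusted p 2.7e-05). Psme2 changed least of the 5, from 335, 371 and 471 to 250, 220 and 278 CPM in Zeb1WT (log2 -0.65, SE 0.23, adjusted p 0.03 in edgeR) and from 493, 326 and 413 to 192, 197 and 222 in Zeb1∆M (log2 -1.01, SE 0.23, adjusted p 0.0022). Its call in Zeb1WT was lost without LPS replicate 2 (log2 -0.67, adjusted p 0.062), LPS replicate 3 (-0.51, 0.13), LPS + LPS replicate 1 (-0.66, 0.059) or LPS + LPS replicate 2 (-0.57, 0.099). Its close copy Psme2b followed the same path, with 28.2, 26.6 and 31.2 CPM against 11.2, 10.3 and 12 in Zeb1WT (log2 -1.36, adjusted p 0.00057 in edgeR) and a change of -1.39 in Zeb1∆M. The Psme2b transcript matches Psme2 over 96.2% of 837 bases, so that counts may be shared between both, and Psme2b is uncertain as a separate gene.

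None of the 3 constitutive catalytic genes was called after the second dose in either genotype. Psmb5 had 66.2, 63.3 and 49.8 CPM in Zeb1WT LPS and 82.6, 101 and 65.3 in Zeb1WT LPS + LPS (log2 0.47, SE 0.23, adjusted p 0.11 in edgeR). Psmb6 had 104, 100 and 129 CPM against 116, 108 and 230, and Psmb7 had 56.7, 66.5 and 65.8 against 57.6, 54.8 and 44, with log2 changes of 0.45 (-0.13 to 1.02, 95% interval) and -0.27 (-0.70 to 0.15) and adjusted p values of 0.21 and 0.31. In Zeb1∆M the changes were 0.47 for Psmb5, 0.05 for Psmb6 and -0.22 for Psmb7 (-0.64 to 0.21), so that a modest fall of Psmb7 is within its interval.

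Each inducible gene was also set against the gene of the subunit it replaces, as a log2 ratio of RNA levels within each library. Such a ratio compares 2 genes of different length and is read here for its change between groups, not for its level. It is made from the same counts as the tests above and says nothing of the subunits in assembled particles. The ratio of Psmb9 to Psmb6 was 0.50, 0.53 and 0.43 in Zeb1WT LPS and -0.72, -1.23 and -2.40 in Zeb1WT LPS + LPS, and -0.29, 0.57 and 0.27 against -1.85, -1.66 and -2.12 in Zeb1∆M. That of Psmb8 to Psmb5 was 2.83, 3.01 and 3.26 against 1.08, 0.37 and 1.54 in Zeb1WT, and 3.61, 2.74 and 3.18 against 1.13, 1.52 and 1.49 in Zeb1∆M. That of Psmb10 to Psmb7 was 2.20, 2.04 and 2.16 against 1.02, 0.46 and 1.27 in Zeb1WT, and 2.01, 2.26 and 2.31 against 0.76, 0.67 and 0.47 in Zeb1∆M. All 3 ratios were lower after 2 doses in every library of each genotype than in any single-dose library of that genotype. The mean differences were -1.999 for Psmb9/Psmb6, -1.92 for Psmb8/Psmb5 and -1.39 for Psmb10/Psmb7. Each had p = 0.005 in a two-sided exact permutation test within genotype, the smallest that its 400 regroupings allow, or 0.0112 adjusted over the 9 ratio tests.

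**Figure D2:**
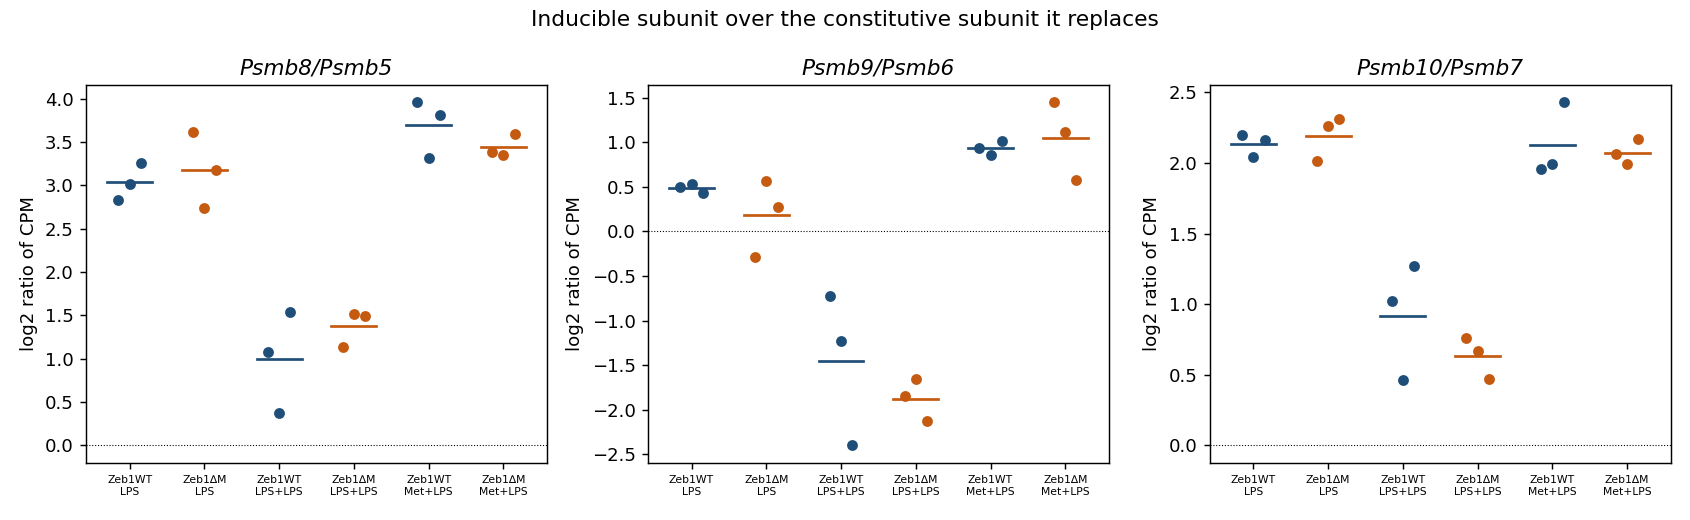
Log2 ratio of each inducible catalytic subunit to the constitutive subunit it replaces (y axis) in the 6 groups (x axis), with a point per library and a bar per group mean. All 3 ratios sit lowest in the LPS + LPS groups, where the mean of Psmb9/Psmb6 is -1.45 in Zeb1WT and -1.88 in Zeb1∆M against 0.49 and 0.18 after a single dose.

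Among the remaining members, Psma6 moved the other way. It had 211, 194 and 151 CPM in Zeb1WT LPS and 507, 450 and 497 in Zeb1WT LPS + LPS, a 2.62-fold rise (log2 1.39, SE 0.18, adjusted p 1e-05 in edgeR). In Zeb1∆M it went from 232, 202 and 248 to 491, 422 and 390 CPM (log2 0.93, adjusted p 0.00062). The other alpha genes were divided. Psma1 rose from 105, 96.2 and 94.2 to 134, 154 and 160 CPM in Zeb1WT (log2 0.60, adjusted p 0.019, a call lost without LPS replicate 2 or 3 or LPS + LPS replicate 3, at 0.61, 0.56 and 0.54) and was not called in Zeb1∆M (log2 0.43, adjusted p 0.09). In all, 2 of the 7 alpha ring genes rose and 2 fell in Zeb1WT, and 1 rose and 4 fell in Zeb1∆M. Psma5 fell from 178, 154 and 182 to 90.5, 75.6 and 106 CPM in Zeb1WT (log2 -0.92, adjusted p 0.0016) and from 219, 156 and 181 to 89.9, 90.5 and 129 in Zeb1∆M (log2 -0.84, adjusted p 0.0035). Psma3 fell from 295, 298 and 263 to 183, 160 and 205 CPM in Zeb1WT (log2 -0.64, adjusted p 0.018, a call lost without LPS replicate 2 or LPS + LPS replicate 2, at -0.59 and -0.56 with adjusted p 0.067 and 0.07) and from 356, 257 and 280 to 175, 146 and 173 in Zeb1∆M (log2 -0.85, adjusted p 0.0033). Psmc1, an ATPase of the cap, rose from 138, 127 and 121 to 215, 200 and 303 CPM in Zeb1WT (log2 0.90, SE 0.18, adjusted p 0.00085) and by 0.58 in Zeb1∆M, where the call was lost without LPS replicate 2 (log2 0.46, adjusted p 0.095) or LPS + LPS replicate 1 or 3 (0.56 and 0.54, adjusted p 0.06 and 0.071). Of the 17 ATPase and non-ATPase cap subunits, 2 rose and none fell in Zeb1WT, and 3 rose and 2 fell in Zeb1∆M. Of the 7 assembly factors, 1 rose in Zeb1WT and none was called in Zeb1∆M. Beside these alpha ring, cap and assembly counts, 18.6% of all genes were called higher and 18% lower in Zeb1WT. In Zeb1∆M the shares were 15.8% and 16.9%.

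Genes around the immunoproteasome were read from lists chosen with earlier results of these data known. Their counts stand beside 18.6% of all genes higher and 18% lower in Zeb1WT, and 15.8% and 16.9% in Zeb1∆M. Of 18 genes of MHC class I processing, 14 fell and none rose in Zeb1WT LPS + LPS (median log2 change -0.92), and 9 fell in Zeb1∆M (-0.75). Of 16 interferon signalling genes tested, 12 fell and 1 rose in Zeb1WT (-1.20), and 11 fell and 1 rose in Zeb1∆M (-1.36). Tap1 had 998, 1100 and 1090 CPM in Zeb1WT LPS and 360, 137 and 179 in Zeb1WT LPS + LPS (log2 -2.24, adjusted p 1.3e-05 in edgeR). Irf1, a factor known to act on the promoter shared by Psmb9 and Tap1, had 1100, 1520 and 972 against 543, 123 and 121 CPM (log2 -2.19, adjusted p 0.0015). Nlrc5, the transactivator of MHC class I genes, had 169, 187 and 272 against 73.7, 30.4 and 17.2 CPM (log2 -2.37, adjusted p 0.00036). All 3 fell in Zeb1∆M as well, with log2 changes of -2.85 to -2.46. Nfe2l1 did not pass the test in either genotype (log2 0.12 and 0.09), and its relative Nfe2l2, the regulator of antioxidant genes, fell by 0.66 (adjusted p 0.016) and 1.06 (adjusted p 6e-04). Of 9 proteasome genes with other symbols, 1 rose and 1 fell in Zeb1WT and 2 fell in Zeb1∆M, and Pomp, the core's assembly chaperone, was not called in Zeb1WT (log2 -0.08). Of 16 genes of ubiquitin, shuttle factors and p97, 2 rose and 3 fell in Zeb1WT and 1 rose and 2 fell in Zeb1∆M. For this list and the 9 genes with other symbols, the share called was no higher than over all genes (36.6% and 32.7%).

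Cell markers moved with the second dose. The summed level of 6 large peritoneal macrophage markers was 7970 to 10300 CPM in Zeb1WT LPS and 704 to 908 in Zeb1WT LPS + LPS, and 11000 to 12200 against 1950 to 2760 in Zeb1∆M. Of the 6, 5 were called lower in Zeb1WT and 4 in Zeb1∆M. Gata6 was called in neither (log2 -0.465 and -0.778), and Cd5l was not called in Zeb1∆M (0.246). The summed level of 8 neutrophil markers was 209 to 433 against 557 to 3280 CPM in Zeb1WT and 32.6 to 90.7 against 390 to 984 in Zeb1∆M. The rise was not shared by all 8, of which 4 were called higher in Zeb1WT and 5 in Zeb1∆M. In Zeb1WT Ly6g, Camp and Ltf had log2 changes of -0.115, -0.305 and -0.027. The summed level of 6 dendritic cell markers was 471 to 825 against 7.11 to 19.4 CPM in Zeb1WT and 284 to 1050 against 6.21 to 9.85 in Zeb1∆M. Of the 5 tested, 3 were called lower in Zeb1WT and 2 in Zeb1∆M. Cd209a fell most of these (log2 -7.55 and -9.38). Flt3 and Xcr1 were called in neither genotype, and 2 of the 5 had estimates above 0 in Zeb1∆M. The summed macrophage markers were also lower, at 43700 to 57000 against 15000 to 24200 CPM in Zeb1WT and 26600 to 42000 against 12200 to 16000 in Zeb1∆M. Only Lyz2 of these 6 genes was called lower (log2 -1.53 in Zeb1WT and -1.81 in Zeb1∆M). Csf1r, Cd68 and Mertk were called higher in Zeb1∆M (0.76, 0.815 and 0.84), and none of the 6 was called higher in Zeb1WT. The B cell markers were 407 to 623 against 124 to 181 CPM in Zeb1WT and 98.7 to 152 against 121 to 236 in Zeb1∆M. None of the neutrophil markers was at 0 in these groups, and the part of these shifts in the results was not tested. In bulk RNA a smaller number of cells of a type and less RNA per cell cannot be told apart.

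**Figure D3:**
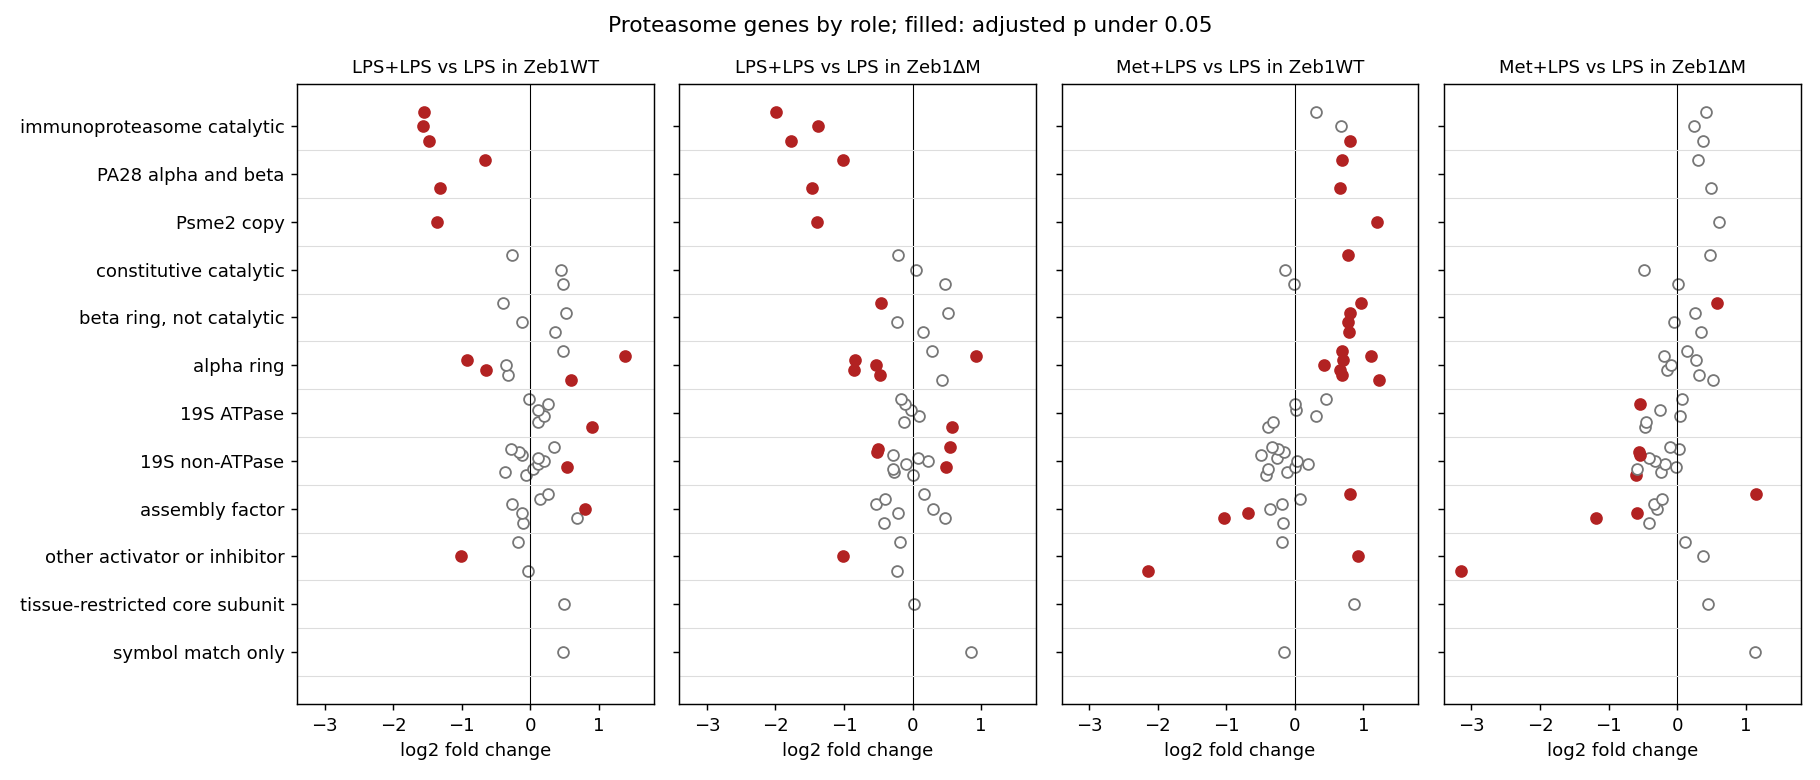
Log2 fold change of each of the 49 members tested (x axis) for the treatment comparisons in Zeb1WT and Zeb1∆M, arranged by role (y axis), with filled symbols for genes called at an adjusted p under 0.05. The inducible genes lie at -1.56 to -0.65 in the LPS + LPS comparison in Zeb1WT, where the median of the other 44 is 0.11.

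Metformin before LPS went with higher levels of core subunits in Zeb1WT. All 7 alpha ring genes (median log2 change 0.69, range 0.42 to 1.23) and all 4 non-catalytic beta genes (median 0.80, range 0.78 to 0.97) rose, while 0 of the 17 cap subunits were called in either direction. In all, 18 of 49 members were higher and 3 lower in Zeb1WT, against 25.2% of all genes called (13% higher and 12.3% lower). In Zeb1∆M 2 were higher and 7 lower, against 26.2% (12.6% higher and 13.6% lower), and of the 11 core genes only Psmb4 was called in the main edgeR fit. Fewer of the 11 core genes were called in Zeb1WT without LPS replicate 1 (6), LPS replicate 2 (7) or Metformin + LPS replicate 3 (5). Core calls were also lost without LPS replicate 3 (Psma3, Psma4 and Psmb2) and without Metformin + LPS replicate 1 (Psma4, Psma7 and Psmb2). The fit of the compared groups alone lost Psma3, Psma4 and Psma7, and the fit without the count filter lost Psma4.

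Psma1 had 105, 96.2 and 94.2 CPM in Zeb1WT LPS and 245, 182 and 267 in Zeb1WT Metformin + LPS (log2 1.23, SE 0.19, adjusted p 0.00022 in edgeR). Psma6 had 211, 194 and 151 CPM against 435, 325 and 443 (log2 1.11, SE 0.18, adjusted p 3e-04). Psmb4, a beta subunit that does not cut, had 133, 126 and 132 CPM against 261, 222 and 281 (log2 0.97, SE 0.16, adjusted p 0.00038). In each, all metformin libraries lay above all LPS libraries, and replicate 2 was the lowest of the metformin libraries. Psme2b, uncertain as above, had 28.2, 26.6 and 31.2 CPM against 86.3, 35 and 75.5 (log2 1.19, adjusted p 0.003). These 4 genes were called under all 12 alternatives tried. In Zeb1∆M, Psma1 went from 134, 81.2 and 104 to 136, 155 and 167 CPM and was not called, and Psmb4 rose from 142, 94.3 and 139 to 180, 182 and 196 CPM (log2 0.58, adjusted p 0.014 in edgeR, and 0.41 with adjusted p 0.068 without LPS replicate 2). Psma1 was called in Zeb1∆M by DESeq2 (log2 0.56, adjusted p 0.025). In edgeR alternatives it was called with DESeq2 factors and with the replicate block (0.56 and 0.54, adjusted p 0.045 and 0.038). It was also called with length and GC trends removed (0.49, adjusted p 0.024) and without LPS replicate 1 (0.72, adjusted p 0.019).

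Of the inducible genes, 3 of 5 were called higher with metformin in Zeb1WT and 0 of 5 in Zeb1∆M, beside 13% and 12.6% of all genes called higher, and all 5 estimates were above 0 in both (median 0.68 and 0.38). In Zeb1∆M 2 of the 5 had an unadjusted p under 0.05, beside 5103 of 13443 genes. DESeq2 called Psme1 and Psmb9 there (log2 0.54 and 0.46, adjusted p 0.037 and 0.046). In edgeR alternatives Psme1 was called in the fit of the compared groups alone (0.51, adjusted p 0.047). Psmb9 was called with length and GC trends removed (0.54, adjusted p 0.037). Psmb10 had 263, 274 and 296 CPM in Zeb1WT LPS against 407, 368 and 683 (log2 0.81, SE 0.23, adjusted p 0.014 in edgeR). Psme1 had 260, 264 and 258 against 426, 300 and 511 CPM (log2 0.66, adjusted p 0.022), and Psme2 had 335, 371 and 471 against 617, 440 and 849 CPM (log2 0.70, adjusted p 0.031). Replicate 3 was the highest metformin library and replicate 2 the lowest for all 3. Leaving out a library ended these calls. Without Metformin + LPS replicate 3 the changes were 0.50 for Psmb10 (adjusted p 0.092), 0.50 for Psme1 (0.098) and 0.45 for Psme2 (0.16), and without LPS replicate 1 they were 0.76 (0.056), 0.65 (0.066) and 0.59 (0.12). Psme1 also lost its call without LPS replicate 3 or Metformin + LPS replicate 1, with changes of 0.65 and 0.67, and Psme2 without LPS replicate 2 or Metformin + LPS replicate 1, with changes of 0.69 and 0.75. The estimates thus moved little in these 4 fits, which have fewer libraries, and were lowest without Metformin + LPS replicate 3. Psmb8 had 474, 514 and 482 against 669, 564 and 1120 CPM (log2 0.68, adjusted p 0.063 in edgeR and 0.034 in DESeq2, and 0.023 without Metformin + LPS replicate 2), and Psmb9 had 147, 145 and 174 against 197, 160 and 222 CPM (log2 0.31, adjusted p 0.22).

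The constitutive catalytic genes differed among themselves. Psmb7 rose from 56.7, 66.5 and 65.8 to 104, 91.9 and 126 CPM in Zeb1WT (log2 0.77, adjusted p 0.0099 in edgeR, and 0.69 with adjusted p 0.05 without LPS replicate 1). Psmb5 had 66.2, 63.3 and 49.8 against 42.6, 56.5 and 79.4 CPM (log2 -0.01), and Psmb6 had 104, 100 and 129 against 103, 87.9 and 110 CPM (log2 -0.15), neither called. The ratio of Psmb9 to Psmb6 was 0.94, 0.86 and 1.01 in Zeb1WT Metformin + LPS and 1.45, 1.12 and 0.58 in Zeb1∆M, and it was higher than after LPS alone by a mean of 0.66 (two-sided exact permutation p = 0.005, adjusted 0.0112). This difference was 0.448 in Zeb1WT and 0.866 in Zeb1∆M, where Psmb6 had a log2 change of -0.48, not called. Psmb9 itself was called with metformin in neither genotype in the main edgeR fit. The ratio of Psmb8 to Psmb5 differed by 0.46 (exact permutation p = 0.04, adjusted 0.072), and it passed the threshold without Zeb1∆M LPS replicate 1 (0.57, adjusted 0.0112). That of Psmb10 to Psmb7, whose members both had higher levels, differed by -0.06 (adjusted exact permutation p = 0.568).

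**Figure D4:**
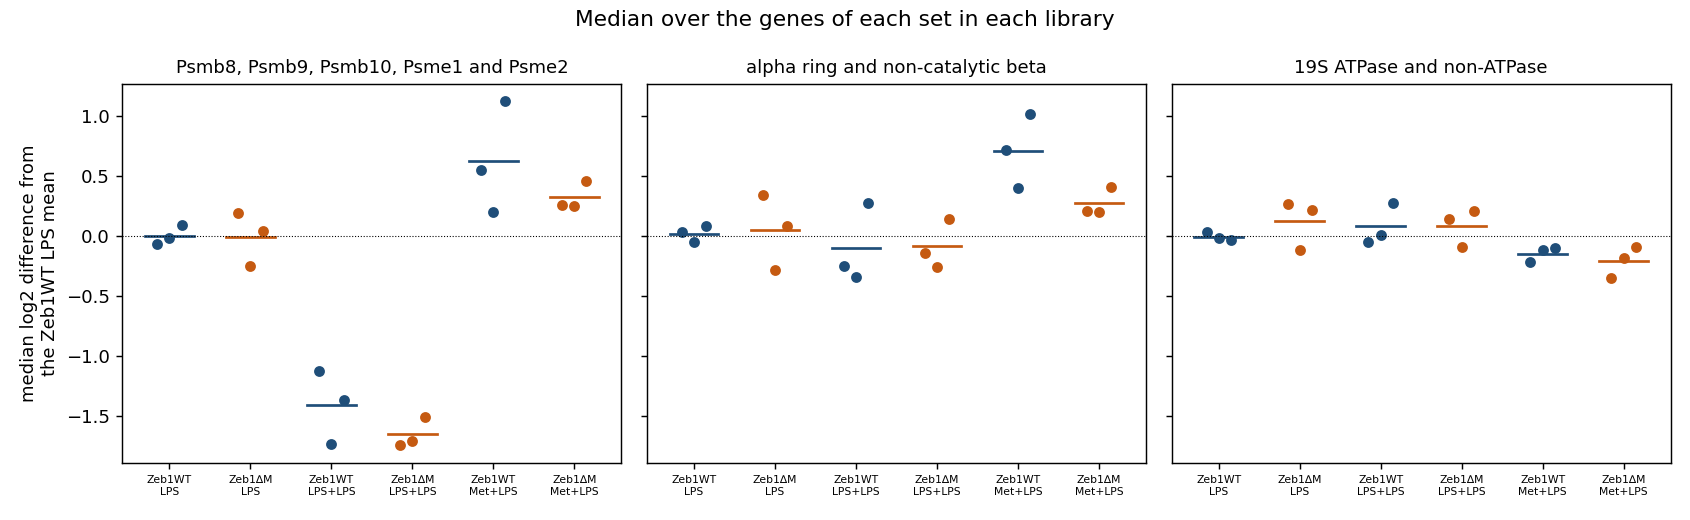
Median log2 difference from the Zeb1WT LPS mean over the 5 inducible genes, the 11 alpha and non-catalytic beta genes and the 17 subunits of the 19S cap (y axis), with a point per library, a bar per group mean, and Zeb1WT in blue and Zeb1∆M in orange, by group (x axis). In Zeb1WT Metformin + LPS the 11 core genes lie at 0.40 to 1.02 and the 17 cap subunits at -0.22 to -0.10.

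Core and cap genes differ in transcript length, and length moved with metformin too. The 11 core genes have a median principal transcript of 1183 bases, and 6 of them are no longer than 1200, while the 17 cap subunits have a median of 1636 and none is that short. Over all genes with at least 5 mean CPM, transcripts of up to 1200 bases had a median log2 change of 0.34 in Zeb1WT with metformin, and those over 3500 bases had 0.07. Across the 49 members the Spearman correlation of the change with length was -0.39 in Zeb1WT, as a description over genes that share these libraries. With the trends of length and GC content removed from each library, an alternative added after the data were seen, 10 of the 11 core genes were still called. The summed macrophage markers were 43700 to 57000 CPM in Zeb1WT LPS and 43000 to 103000 in Zeb1WT Metformin + LPS, and the neutrophil markers were 209 to 433 against 45.1 to 125 CPM. Taken gene by gene, 5 of the 6 macrophage markers were called higher with metformin in Zeb1WT, beside 13% of all genes. Their median log2 change was 1.03 over the 6, and Lyz2 was the one not called (0.59). With DESeq2, 1 cap subunit was called (Psmc6, log2 0.49). In edgeR alternatives Psmc6 was called higher with DESeq2 factors and without Metformin + LPS replicate 2 (0.49 and 0.57). Psmd4 was called lower with the replicate block and in the fit of the compared groups alone (-0.50 and -0.51). In the main edgeR fit 4 of the 17 had an unadjusted p under 0.05, beside 5009 of 13443 genes. The part of the marker shifts in the results was not tested.

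Of the assembly factors, which build the particle but are not part of it, 1 of 7 rose and 2 fell with metformin in each genotype, beside 25.2% and 26.2% of all genes called in either direction. Psmg4 was the one that rose in Zeb1∆M, from 4.31, 2.8 and 4.33 to 8.42, 9.96 and 6.94 CPM (log2 1.15, adjusted p 0.0047 in edgeR), and it rose by 0.80 in Zeb1WT, a call lost without LPS replicate 1 or 2 (0.65 and 0.78, adjusted p 0.14 and 0.086) or Metformin + LPS replicate 1 or 2 (0.80 and 0.76, adjusted p 0.07 and 0.076). Psmd5, a chaperone of the cap's base, went from 50.8, 27 and 35.7 to 10.2, 16.6 and 23.3 CPM in Zeb1∆M (log2 -1.18, adjusted p 0.012 in edgeR) and fell by 1.03 in Zeb1WT (adjusted p 0.025). The first call was lost without Zeb1∆M LPS replicate 1 (log2 -0.91, adjusted p 0.064) or Metformin + LPS replicate 1 (-0.90, 0.072), and the second without Zeb1WT LPS replicate 1 or 2 or Metformin + LPS replicate 3 (log2 -1.06, -0.96 and -0.77, adjusted p 0.05, 0.069 and 0.13). Psmd6, a cap subunit, went from 163, 136 and 160 to 92.8, 100 and 118 CPM in Zeb1∆M (log2 -0.56, adjusted p 0.0084, and -0.47 with adjusted p 0.063 without Metformin + LPS replicate 1). In Zeb1∆M the other cap subunits called lower were Psmc5 (log2 -0.54), Psmd1 (-0.61) and Psmd4 (-0.54). Of 12 alternatives each, Psmc5 was called in 6, Psmd1 in 7 and Psmd4 in 4, with changes of -0.66 to -0.40, -0.78 to -0.46 and -0.68 to -0.41, and single libraries left out in turn were among the settings without a call for all 3.

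Psme3 encodes PA28 gamma, a nuclear activator that is not part of the immunoproteasome, and its libraries fell into separate levels. After LPS it had 26.9, 25.2 and 124 CPM in the Zeb1WT libraries and 148, 143 and 140 in the Zeb1∆M libraries. After LPS + LPS it had 115, 30.6 and 25.8 CPM in Zeb1WT, against 117, 119 and 132 for Zeb1∆M. In Metformin + LPS it had 10.8, 14.2 and 14.6 CPM in Zeb1WT and 20.2, 16 and 12.1 in Zeb1∆M. In Zeb1WT a single library of each LPS group was thus near the Zeb1∆M level and the other 2 were far below it. With metformin the log2 change of Psme3 was -3.15 in Zeb1∆M (SE 0.57, adjusted p 0.00081 in edgeR) and -2.15 in Zeb1WT (SE 0.55, adjusted p 0.0086). The call in Zeb1WT was lost without LPS replicate 3 (log2 -0.98, adjusted p 0.12).

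Between genotypes Psme3 was higher in Zeb1∆M by 1.29 (SE 0.53) after LPS and by 1.10 after LPS + LPS, and neither difference was called (adjusted p 0.28 and 0.43 in edgeR). Without Zeb1WT LPS replicate 3 the first was 2.46 (adjusted p 0.015), and without Zeb1WT LPS + LPS replicate 1 the second was 2.13 (adjusted p 0.027). With no filter on low counts both passed, at adjusted p 7.7e-06 and 0.00022. The genes whose log2 CPM was most like that of Psme3 over the 18 libraries, looked up after its values were seen, were Bag1 (Pearson r 0.969), Trir (0.962) and Ybx1 (0.962), of 8019 genes compared. Bag1, a chaperone cofactor, had 15.1, 19 and 108 CPM in Zeb1WT LPS and 103, 28.8 and 23.2 in Zeb1WT LPS + LPS, high in the same libraries as Psme3.

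**Figure D5:**
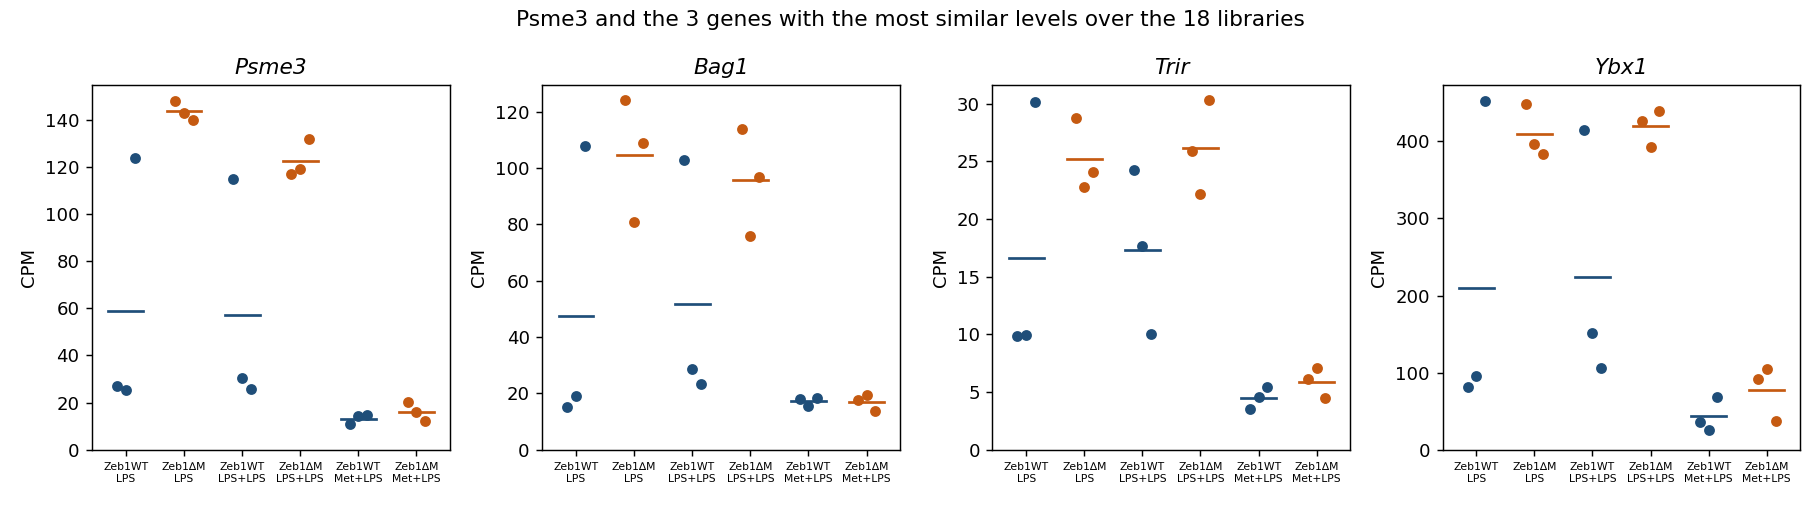
CPM (y axis) of Psme3 and of the genes most like it in each of the 18 libraries by group (x axis), with a point per library and a bar for the group mean. The third Zeb1WT LPS library and the first Zeb1WT LPS + LPS library stand at 124 and 115 CPM of Psme3 among Zeb1WT libraries of 25.2 to 30.6.

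Deletion of Zeb1 in myeloid cells was compared within each treatment. After LPS, 0 of 49 members were called, against 1.15% of all genes, and DESeq2 called 0. There 4 members and 1844 of 13443 genes had an unadjusted p under 0.05. After LPS + LPS 0 were called, against 0.677%, with 2 members and 1575 of 13443 genes at an unadjusted p under 0.05. DESeq2 called Psmb9 there (log2 -0.61, adjusted p 0.048). With metformin 2 were called, both lower in Zeb1∆M, against 5.87% of all genes (1.26% higher and 4.61% lower), and DESeq2 called 6, among them Psme1 (log2 -0.60, adjusted p 0.043). Without Zeb1WT Metformin + LPS replicate 2, 6 were called in edgeR, Psme1 included (log2 -0.77, adjusted p 0.025). Estimates for the inducible genes can be bounded by their 95% intervals, which are taken gene by gene, without adjustment for the number of genes. For Psmb9 the log2 difference was -0.14 (-0.53 to 0.24) after LPS, -0.59 (-0.98 to -0.20, adjusted p 0.16 in edgeR) after LPS + LPS and -0.04 (-0.42 to 0.34) with metformin. For Psme1 it was below 0 in all 3 treatments, at -0.40 (-0.82 to 0.02), -0.55 (-0.97 to -0.12) and -0.56 (-0.99 to -0.14), with adjusted p values of 0.39, 0.27 and 0.11. For Psmb8 it was -0.10 (-0.64 to 0.44), 0.08 (-0.46 to 0.62) and -0.53 (-1.08 to 0.01). The 3 subunit ratios differed between genotypes by 0.09, -0.21 and -0.09, with adjusted exact permutation p values of 0.613, 0.493 and 0.521.

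Psma6 was the member with a genotype difference under every alternative. In Metformin + LPS it had 435, 325 and 443 CPM in Zeb1WT and 170, 206 and 219 in Zeb1∆M, 0.495 of the Zeb1WT level (log2 -1.01, SE 0.18, adjusted p 0.0034 in edgeR). The groups did not overlap, and the Zeb1∆M libraries lay in the range of 151 to 248 CPM held by the 6 LPS libraries. Psma3 had 438, 345 and 569 against 242, 232 and 331 CPM (log2 -0.75, SE 0.20, adjusted p 0.035), a call lost without Zeb1WT Metformin + LPS replicate 1 or 3 (log2 -0.79 and -0.56, adjusted p 0.068 and 0.16) or Zeb1∆M replicate 1 or 2 (-0.70 and -0.67, adjusted p 0.14 for both). The other 9 core genes had estimates below 0 without passing the test in the main edgeR fit. DESeq2 also called Psma1, Psma4 and Psmb4 (log2 -0.64, -0.48 and -0.49, adjusted p 0.024, 0.0078 and 0.035). Without Zeb1WT Metformin + LPS replicate 2, edgeR called Psma1 and Psma4 (-0.76 and -0.56, adjusted p 0.024 and 0.037). In the main fit 8 of the 11 core genes and 12 of the 49 members had an unadjusted p under 0.05, beside 2779 of all 13443 genes. The response of Psma6 to metformin differed between genotypes by -1.31 (SE 0.25, adjusted p 0.049 in edgeR). Psma6 was the only member called in this interaction, against 0.156% of all genes (0.0818% higher and 0.0744% lower). In this interaction 7 of 49 members and 1832 of 13443 genes had an unadjusted p under 0.05. The Psma6 call was kept in 5 of 18 alternatives. It was lost when any library but Zeb1WT Metformin + LPS replicate 2 was left out, with an adjusted p of 0.051 to 0.15. Its size was -1.45 to -1.18 over the 18 alternatives. In the interaction with the second LPS dose 0 members were called, of 0 genes called in all, with 0 members and 939 genes at an unadjusted p under 0.05, and DESeq2 called 74 genes, none of them a member. In the Metformin + LPS pair the summed macrophage markers were 43000 to 103000 CPM in Zeb1WT and 17900 to 25000 in Zeb1∆M. Lyz2, whose promoter drives Cre in Zeb1∆M, was the only 1 of these 6 genes called (log2 -2.33, adjusted p 0.0015 in edgeR). The other 5 were not called, at log2 differences of -0.66 to 0.42. The monocyte markers were 165 to 397 CPM against 47.5 to 91.8, the B cell markers 101 to 173 against 26.5 to 36.4, the neutrophil markers 45.1 to 125 against 5.37 to 10.5 (with Ly6g at 0 in every Zeb1∆M library) and the eosinophil markers 42.8 to 65 against 2.94 to 4.25 (with Prg2, Epx and Ear1 at 0 there). After LPS the neutrophil markers were 209 to 433 CPM in Zeb1WT against 32.6 to 90.7 in Zeb1∆M and the B cell markers 407 to 623 against 98.7 to 152. The part of these marker differences in the results was not tested.

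Of the listed neighbours, 5 of 18 MHC class I genes were lower in Zeb1∆M with metformin and none after LPS or LPS + LPS. Over all genes 4.61% were lower with metformin, and 1.15% and 0.677% were called after LPS and LPS + LPS. B2m, the light chain of MHC class I, rose with metformin in Zeb1WT from 2410, 2780 and 2350 to 14700, 6820 and 16400 CPM (log2 2.33, adjusted p 2e-05 in edgeR), and by 0.80 in Zeb1∆M (adjusted p 0.03). With metformin it was lower in Zeb1∆M by a log2 difference of -1.95 (adjusted p 0.00066). Of the 18 genes, 10 rose and 1 fell with metformin in Zeb1WT and 6 rose in Zeb1∆M. The metformin counts here stand beside 13% of all genes higher and 12.3% lower in Zeb1WT, and 12.6% and 13.6% in Zeb1∆M. Tap1 was not called with metformin in either genotype (log2 0.25 and 0.12). Of 16 interferon signalling genes 4 rose and 2 fell in Zeb1WT and 3 rose and 2 fell in Zeb1∆M. Pomp rose in Zeb1WT (log2 0.85, adjusted p 0.005) and was not called in Zeb1∆M (0.47, adjusted p 0.093). Of the 9 factors known to act on proteasome genes, 1 rose and 4 fell after the second LPS dose in each genotype, 1 fell with metformin in Zeb1WT, and 2 rose and 2 fell with it in Zeb1∆M. After the second dose 36.6% of all genes were called in Zeb1WT and 32.7% in Zeb1∆M, in either direction.

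Over all 18 libraries the 5 inducible genes correlated with each other at Pearson r of 0.90 to 0.98 in log2 CPM, values that share library and treatment and are a description. With group means removed, Psmb8 and Psmb10 still had r of 0.92, while Psmb8 and Psmb9 had 0.27. The genes most like each over the 18 libraries, of 8019 compared, were Cd40, Parp9 and Pcgf5 for Psmb9 (r 0.991, 0.985 and 0.985), Ifi47, Trex1 and Snx2 for Psmb10 (0.987, 0.983 and 0.982) and Psmb10, Rtp4 and Usb1 for Psmb8 (0.980, 0.977 and 0.977). For Psme1 they were Nt5c3, Car13 and AW112010 (0.977, 0.976 and 0.974), and for Psme2 they were Snx2, Psmb10 and Ube2f (0.974, 0.962 and 0.962). On GRCm38, Psmb8 (chr17:34197721-34201454, plus strand) and Psmb9 (chr17:34181987-34187764, minus strand) lie in the MHC, and Psme1 (chr14:55578123-55581529, plus) and Psme2 (chr14:55587441-55591113, minus) are close neighbours. Exons of Psmb9 overlap those of Tap1 on the other strand over 212 bases, and those of Psmb8 overlap Gm20496 over 498 bases. The kit marks strand, but how strand was used in counting is not given in the sources used here, so that reads in these overlaps may be shared.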

How the data were processed

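RNA was taken from sorted peritoneal macrophages, and stranded poly(A) libraries were sequenced. The authors deposited whole-number counts per gene. Per the labels, STAR, RSEM and DESeq2 were used on GRCm38, and versions, strand setting and filters are not given in the sources used here. The gene IDs match GENCODE M21 with their version for 99.3%. Groups came from the labels. Library totals of 14053706 to 30570439 set the counting precision.

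The counts were fitted over 18 libraries with edgeR 4.0.16 (limma 3.58.1, R 4.3.3): TMM factors, filterByExpr (13443 genes kept, 49 of 50 members), a term per group, quasi-likelihood tests and Benjamini-Hochberg adjustment over all genes, called under 0.05. Intervals used each gene's SE and the total degrees of freedom of its test. CPM used TMM library sizes. Subunit ratios used log2 of CPM plus 0.5 and an exact permutation test within strata, adjusted over 9 tests. Principal transcript lengths were from GENCODE and promoters from RefSeq. Nothing states that the pools came from separate experiments, so p-values measure the spread between these pools. Replicates differed by more than sampling noise. Each step was tested on simulated data.

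The alternatives were DESeq2 factors, the DESeq2 1.42.0 Wald test, no count filter, a fit of the compared groups alone, a replicate block, each library left out, other pseudocounts (0.05 and 5), and removal of length and GC trends, added after the data were seen. Members, lists and the naming rule were chosen with earlier results of these data known. The rule gave values in every library for the 5 inducible and 3 constitutive catalytic genes and for up to 4 other called members with the smallest adjusted p per comparison. Psme3 in Zeb1WT, the metformin values of other members and the genes like Psme3 were added after their values were seen. Marker lists for other cell types were read as summed CPM. One listed gene is not reported here.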

Additional observations from a re-analysis of the deposited data

Results flagged for a closer look

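The metformin response of Psma6 differed between genotypes in a test of the difference itself, with an interaction of -1.308 on the log2 scale (SE 0.254, adjusted p 0.049 in edgeR). Psma6 was higher with metformin in Zeb1WT, where 3 of 3 metformin libraries lay above all LPS libraries, and it was not called in Zeb1∆M, where 170, 206 and 219 CPM stood against 232, 202 and 248 after LPS. The call of this difference was lost in 13 of 18 alternatives, among them the replicate block (adjusted p 0.057) and the fit of its 4 groups alone (0.052), while the estimate stayed between -1.45 and -1.18.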

How the results depend on the processing

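Over 116 fold changes and ratios of members and 1434 alternative values of them, 1222 kept their direction and their side of the threshold, 171 lost a call, 14 gained one and 27 changed sign. Those of Psmb8, Psmb9, Psmb10 and Psme1 after the second LPS dose, and of Psme2 in Zeb1∆M, kept their calls in all 12 alternatives each. Counts of called members moved as follows. Without the count filter they were 1 between genotypes after LPS and 1 after LPS + LPS (Psme3 in both), 11 for LPS + LPS in Zeb1∆M and 3 for metformin in Zeb1∆M. DESeq2 gave 1 between genotypes after LPS + LPS and 6 with metformin, where a fit of these 2 groups alone gave 1. Leaving out a library gave 0 to 1 members between genotypes after LPS and after LPS + LPS (1 without Zeb1WT LPS replicate 3 and without Zeb1WT LPS + LPS replicate 1), 1 to 6 with metformin, 8 to 22 for metformin in Zeb1WT (8 without LPS replicate 1, 10 without Metformin + LPS replicate 3, 13 without LPS replicate 2 or Metformin + LPS replicate 1) and 3 to 11 in Zeb1∆M (3 without Metformin + LPS replicate 1, 5 without LPS replicate 3 or Metformin + LPS replicate 2). The metformin interaction had 0 to 1 members, with 0 under the replicate block and 0 in the fit of its 4 groups alone. The cause was not tested.

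Leaving out a library moved the Psmb8/Psmb5 ratio from 0.351 to 0.568 for metformin and from -0.014 to 0.18 between genotypes. Differences that changed sign when a library was left out were small and not called in any setting. Between genotypes after LPS these ranged from -0.269 to 0.119 for Psmb8, -0.01 to 0.265 for Psmb10, -0.085 to 0.218 for Psme2, -0.076 to 0.394 for Psmb6 and -0.169 to 0.252 for Psmb7. After LPS + LPS they were -0.057 to 0.196 for Psmb8, -0.38 to 0.243 for Psmb6 and -0.035 to 0.237 for Psmb7, and with metformin -0.174 to 0.063 for Psmb9 and -0.494 to 0.005 for Psmb10. For LPS + LPS in Zeb1∆M they were -0.138 to 0.332 for Psmb6, also -0.158 with length and GC trends removed, and -0.393 to 0.027 for Psmb7. For metformin, Psmb5 ranged from -0.242 to 0.215 in Zeb1WT, with 0.031 under DESeq2 factors and 0.031 in DESeq2, and from -0.061 to 0.126 in Zeb1∆M.

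No clear pairing of the samples by replicate number was seen: deviations of same-numbered libraries correlated at -0.13 to 0.21 (median 0.02, 45 pairs, 6 over 0.1), and 8 of 18 libraries were closest to their own number. Such correlations cannot show that same-numbered pools were prepared separately. With the replicate block 18 members were called for LPS + LPS in Zeb1WT and 18 in Zeb1∆M, 23 for metformin in Zeb1WT and 11 in Zeb1∆M. Over all genes, called counts between genotypes were 154, 91 and 789 after LPS, LPS + LPS and metformin, and 738, 640 and 1213 without the filter, 505, 382 and 1371 in DESeq2, and 55 to 232, 29 to 397 and 321 to 965 with a library left out. The LPS + LPS interaction had 0 called genes, 236 without the filter, 74 in DESeq2, 2 with DESeq2 factors, 14 with length and GC trends removed and up to 11 with a library left out. The metformin interaction had 21, against 601 without the filter, 300 in DESeq2, 44 in the fit of its groups alone, 40 with trends removed and 3 to 70 with a library left out. In LPS + LPS between genotypes the fit of these groups alone called 0 genes, and with metformin 505. Metformin in Zeb1∆M had 3518 genes, and 2268 with a library left out.

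With 3 pools per group, several metformin calls were lost with a library left out, a fit that also has fewer samples. Members near 5 CPM, such as Psmg4, rest on few reads.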
